A study of Rattus norvegicus with 20 samples.

Results

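The genes described here code for proteins of the neuronal cytoskeleton and the growth cone. They are the microtubule-associated proteins Map2, Mapt and Map1b, the growth cone protein Gap43, and the neurofilament proteins Nefl, Nefm, Nefh and Ina. All probe sets annotated to exactly 1 of these 8 rat symbols were taken, which gave 19 of the 8740 probe sets tested and 8 of the 4736 genes they name. Map2 has 5 of them, Mapt and Map1b have 3 each, Nefl, Nefh and Ina have 2 each, and Gap43 and Nefm have 1 each. Probe sets of 1 gene are kept apart and lettered from A downwards by their mean level over all cultures.

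The samples are cultured rat progenitor cells and cells derived from them, measured on 20 one-colour Affymetrix arrays. High-density progenitors (HD) have 6 arrays in 3 cultures, and low-density CCg progenitors (LD) have 4 arrays in 3 cultures. LD cells given FBS in order to obtain astrocytes have 6 arrays in 4 cultures, and LD cells given RA/Fsk in order to obtain neurons have 4 arrays in 4 cultures. FBS usually stands for fetal bovine serum, RA for retinoic acid and Fsk for forskolin, while CCg is left unexpanded in the labels. A culture here means all arrays of a group whose titles carry the same number. The titles do not say that these numbers are separate cultures, so the p-values measure only the spread between these samples, which may be technical. The HD labels do not mention CCg, so density and CCg cannot be told apart in any comparison with HD. Strain, age, dose and treatment time were not given in the sources used here.

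Microtubule-associated proteins bind and stabilise microtubules. MAP2 is a protein of neuronal cell bodies and dendrites, tau (the product of Mapt) is best known from axons, and MAP1B is typical of growing axons in young neurons. GAP-43 is a membrane-bound substrate of protein kinase C that is abundant in growth cones, the motile tips of extending axons. Neurofilaments are the intermediate filaments of neurons, in which light (Nefl), medium (Nefm) and heavy (Nefh) chains assemble together with alpha-internexin (Ina), which appears early in development.

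Intensities are on the deposited linear scale, and differences are log2(intensity + 4.99) of the first group minus the second, with the standard error (SE) and an adjusted p from limma. A probe set passed at an adjusted p under 0.05 over all 8740 probe sets, and rose, fell and changed are used only of what passed. Array correlations over all probe sets ran from 0.877 to 0.979. The lowest correlation between arrays of 1 culture, 0.951, belonged to FBS arrays 3 and 3r. Of 13 neuron markers 7 were measured, and their summed intensity was 2965 to 3311 in HD, 3142 to 3396 in LD, 2377 to 2614 in FBS and 2476 to 3612 in RA/Fsk cultures. Thus the cultures labelled as neurons overlapped LD in that sum, but Uchl1 made up most of it, with group means of 2137 to 2756. The other measured neuron markers had group means of 8.22 to 159, so the sum says little about them. Tubb3, Eno2, Rbfox3, Elavl2, Elavl3 and Stmn2 were not analysed here because no probe set carries their symbol alone. The 7 measured astrocyte markers summed to 3801 to 4999 in HD, 2003 to 2612 in LD, 5986 to 8008 in FBS and 7994 to 9350 in RA/Fsk cultures, and Gfap was likewise not analysed here. Aldoc, S100b and Glul made up most of that sum. Against LD, 4 of the 7 rose in FBS and 3 in RA/Fsk (beside 13.2% and 4.71% of all probe sets), and 0 fell (beside 12.3% and 3.54%). Slc1a3 went the other way from the sum, 1.76 lower in RA/Fsk than in FBS on the log2 scale. Slc1a2, Aqp4 and Gja1 had group means of 5.62 to 34.9. In such bulk samples fewer cells of a type and less RNA per cell cannot be told apart.

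Promoter windows from RefSeq (build GRCr8), running from 250 bases before to 50 bases after an annotated start, were matched to 3 of the 8 genes. The windows of Map1b, which has a probe set that passed, and of Ina, which has none, are shown because they can be set side by side as promoters of a microtubule protein and of a neurofilament protein. Map1b lies on the minus strand at chr2:32644422-32644721 and Ina on the plus strand at chr1:255837879-255838178. Each is written 5′ to 3′ on the strand of its gene, and capitals mark the motif matches.
Map1b: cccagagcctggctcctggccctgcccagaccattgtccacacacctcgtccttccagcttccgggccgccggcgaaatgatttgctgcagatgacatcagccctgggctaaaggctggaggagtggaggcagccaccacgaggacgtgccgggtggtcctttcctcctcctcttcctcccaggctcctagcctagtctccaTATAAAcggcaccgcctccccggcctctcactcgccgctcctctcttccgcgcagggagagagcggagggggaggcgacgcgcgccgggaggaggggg
Ina: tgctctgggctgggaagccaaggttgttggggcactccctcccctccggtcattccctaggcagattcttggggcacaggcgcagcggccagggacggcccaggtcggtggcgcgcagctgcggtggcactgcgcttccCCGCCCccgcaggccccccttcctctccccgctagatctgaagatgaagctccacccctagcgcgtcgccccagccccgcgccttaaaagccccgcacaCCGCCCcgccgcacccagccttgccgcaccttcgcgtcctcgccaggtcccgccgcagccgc

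The motifs searched on both strands were the CRE TGACGTCA, its inner part TGACG (which lies within the full CRE), the AP-1 site TGANTCA, the E-box CACGTG, the GC box GGGCGG, the CCAAT box and the TATA box TATAAA. Over 33469 windows of the same length they occurred in 1.83%, 21.2%, 7.33%, 6.42%, 33.1%, 37.5% and 14.2% in that order. The Map1b window held 1 TATAAA, which begins 48 bases before the start, and was 66.7% G and C. The Ina window held 2 GC boxes on the opposite strand, at 111 and 12 bases before the start, and was 71.7% G and C, against a median of 51.7% over all windows. The third window, of Map2 at chr9:75346440-75346739, was 33.3% G and C, held no match, and lies 173402 bases inside the annotated gene. No match says only that these letters are not in the window. Nefl (chr15:46477330-46481203) and Nefm (chr15:46535857-46541161) are neighbours 54.7 kb apart with 0 protein-coding genes between them.

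Of the 19 probe sets, 8 passed in at least 1 of the 6 comparisons, where 34.6% of all probe sets did, and they belong to 5 genes: Map2, Mapt, Map1b, Gap43 and Nefm. The other 11 passed in none, among them every probe set of Nefl, Nefh and Ina. Only 10 of the 19 lie in the brighter 50% of the array by mean level, and these belong to 5 genes (Map2, Mapt, Gap43, Nefh and Ina), so the neurofilament and Map1b values rest mostly on dim signals.

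In HD against LD, a comparison of the progenitor states, 1 of 19 probe sets passed, upward (Map2 B), where 0.858% of all probe sets passed, 0.435% upward and 0.423% downward. In FBS against LD 5 passed, 3 upward and 2 downward, where 25.5% of all passed, 13.2% upward and 12.3% downward. In RA/Fsk against LD, the treatment meant to derive neurons against its own starting cells, 1 passed, downward (Gap43), where 8.25% of all passed, 4.71% upward and 3.54% downward. These comparisons share the LD cultures. The median difference of the 19 was 0.19, 0.16 and 0.12 in that order, beside medians of -0.08, -0.09 and -0.05 over all probe sets.

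The remaining comparisons order the levels without the LD cultures. In RA/Fsk against FBS 5 passed, 3 upward and 2 downward, where 18.4% of all passed, 8.27% upward and 10.1% downward. In FBS against HD 7 passed, 1 upward and 6 downward, where 21.0% of all passed, 11.3% upward and 9.70% downward. In RA/Fsk against HD 2 passed, both downward (Map2 B and Gap43), where 10.2% of all passed, 4.85% upward and 5.32% downward. Median member differences were 0.13, -0.09 and -0.12, beside 0.06, 0.03 and 0.07 over all probe sets.

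**Figure D1:**
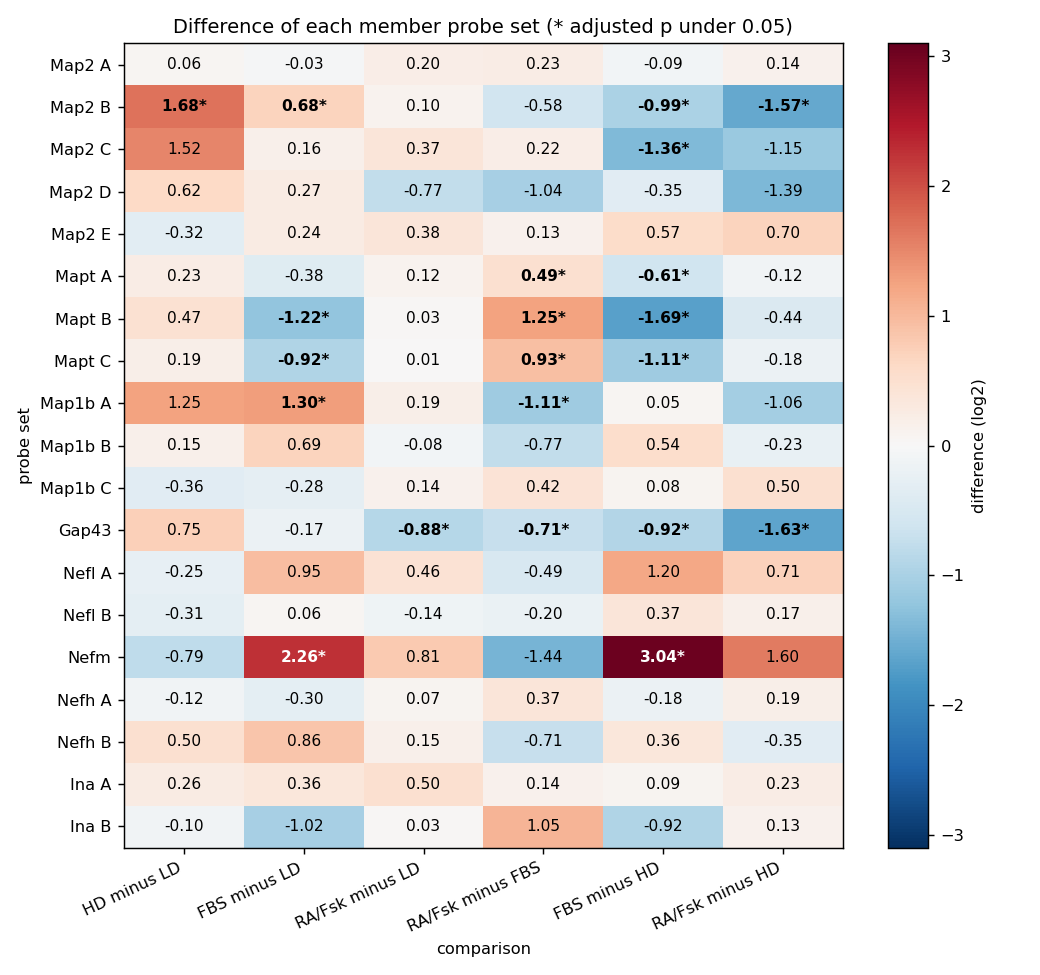
Difference in log2 units of each of the 19 member probe sets (rows) in the 6 comparisons (columns), with red for a higher first group and an asterisk for an adjusted p under 0.05. The Mapt rows are negative for FBS against LD and HD, Nefm is 2.26 and 3.04 higher there, and Gap43 is the only asterisk for RA/Fsk against LD.

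Map2, the dendritic microtubule protein, was higher in HD than in LD on 1 of its 5 probe sets. Map2 B read 202, 145 and 117 in HD cultures 1, 2 and 4, against 36.5, 47.6 and 48 in LD cultures 1, 3 and 4. Every HD culture lay above every LD culture, and the difference was 1.68 ± 0.26 (SE), a 3.19-fold rise (adjusted p = 0.00368). The FBS cultures read 66.5, 60.1, 81.2 and 88.5, and the RA/Fsk cultures 41.9, 39.2, 51.9 and 58.3. The FBS values lay between those of LD and HD without touching either group. RA/Fsk values overlapped LD.

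Map2 B was also lower in both treated groups than in HD. FBS minus HD was -0.99 ± 0.24 on the log2 scale (adjusted p = 0.00591), and RA/Fsk minus HD was -1.57 ± 0.24 (adjusted p = 0.000534). Without HD culture 1, the brightest, FBS against HD stood at an adjusted p of 0.0531. Its rise in FBS over LD was small, at 0.68 ± 0.24 (adjusted p = 0.0479), and passed in only 14 of 27 alternative settings. RA/Fsk against LD differed by 0.10 (95% interval -0.41 to 0.61), and RA/Fsk against FBS by -0.58 (adjusted p = 0.0879).

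Map2 C, whose probe set is drawn from a coding sequence, read 138, 126 and 144 in HD. Its LD cultures read 17.0, 74 and 63, the FBS cultures 27.0, 46.4, 58.0 and 81.6, and the RA/Fsk cultures 56.8, 49.5, 67.6 and 61.8. All 3 HD cultures stood above the other 11, while LD culture 1 and FBS culture 1 were low within their groups. Only FBS against HD passed, at -1.36 ± 0.39 (adjusted p = 0.0170), and it did not pass without HD culture 1 (0.0541), HD culture 4 (0.0615) or FBS culture 1 (0.0588). HD minus LD was 1.52 ± 0.42 (adjusted p = 0.106), which passed with the culture number as a replicate block (adjusted p = 0.0451) and with each array as a sample of its own (0.0184). The arrays of LD culture 1 disagreed, at 48.7 and 4, and without that culture HD minus LD was 0.94 (adjusted p = 0.270). RA/Fsk minus HD was -1.15 (adjusted p = 0.0760).

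Map2 A, brighter than 91.1% of all probe sets, gave no such difference. It read 801, 541 and 602 in HD, 462, 688 and 728 in LD, 640, 636, 544 and 594 in FBS, and 482, 935, 656 and 845 in RA/Fsk cultures. All 4 groups overlapped, and HD minus LD was 0.06 with a 95% interval of -0.42 to 0.54. For RA/Fsk against LD the interval was -0.25 to 0.65 around 0.20. Map2 D ranged from 5.1 to 130 and Map2 E from 8.44 to 48.5 over the 14 cultures, and neither passed in any comparison.

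The Map2 probe sets thus did not track each other. Over the 14 cultures B and C correlated at r = 0.741, A and B at 0.0363, and E correlated negatively with each of the other 4 (-0.538 to -0.462). The cultures share their group structure, so these are descriptions. Alternative transcripts of Map2 are well known, but which of them each probe set reads was not determined.

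Mapt, the tau gene, was lowest in the FBS cultures on all 3 of its probe sets. Mapt B read 193, 152, 159 and 135 in FBS, against 234, 442 and 516 in LD cultures 1, 3 and 4. It read 465, 477 and 645 in HD and 231, 476, 462 and 433 in RA/Fsk cultures. No FBS culture reached the lowest value of any other group, though LD culture 1 and RA/Fsk culture 1 came near it.

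Mapt B fell in FBS against LD by 1.22 ± 0.27 on the log2 scale, 2.33-fold (adjusted p = 0.00245). It was 1.25 ± 0.25 higher in RA/Fsk than in FBS (adjusted p = 0.00162), and FBS minus HD was -1.69 ± 0.27 (adjusted p = 0.000169). RA/Fsk and LD differed by 0.03 (95% interval -0.54 to 0.60), and HD and LD by 0.47 (adjusted p = 0.502).

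Mapt C gave the same order. It read 227, 181, 205 and 142 in FBS, 278, 397 and 414 in LD, 315, 446 and 482 in HD, and 312, 353, 434 and 348 in RA/Fsk cultures. The FBS cultures lay below all others. FBS minus LD was -0.92 ± 0.20 (adjusted p = 0.00197), RA/Fsk minus FBS was 0.93 ± 0.18 (adjusted p = 0.00152), and FBS minus HD was -1.11 ± 0.20 (adjusted p = 0.000460). RA/Fsk minus LD was 0.01 (95% interval -0.41 to 0.43).

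Mapt A, the brightest of the 3, showed smaller differences. It read 398, 294, 348 and 399 in FBS, 471, 412 and 519 in LD, 548, 588 and 511 in HD, and 496, 705, 477 and 391 in RA/Fsk cultures. FBS did not overlap LD or HD, but RA/Fsk culture 4 lay within the FBS range. FBS minus HD passed at -0.61 ± 0.18 (adjusted p = 0.0178) and failed without HD culture 1 (0.0516), HD culture 2 (0.0753) or FBS culture 2 (0.0626). RA/Fsk minus FBS passed at 0.49 ± 0.16 (adjusted p = 0.0432) but in only 11 of 27 alternative settings, and FBS minus LD was -0.38 (adjusted p = 0.138). B and C correlated at r = 0.941 over the 14 cultures, and A correlated with them at 0.685 and 0.645.

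The GAPDH control, whose 5′ and 3′ probe sets track RNA and labelling quality, moved with some of these comparisons. Its 5′ minus 3′ difference was -0.06 in HD, -0.33 in LD, -0.06 in FBS and -0.29 in RA/Fsk cultures on the log2 scale. The LD cultures (-0.469 to -0.212) did not overlap the FBS cultures (-0.161 to -0.007), so group and ratio cannot be fully told apart in FBS against LD. With that ratio as a covariate the Mapt calls against LD and RA/Fsk ended: Mapt B and C in FBS minus LD were -0.62 (adjusted p = 0.134) and -0.56 (adjusted p = 0.0928). In RA/Fsk minus FBS they were 0.73 (adjusted p = 0.0684) and 0.62 (adjusted p = 0.0572). HD and FBS differed by 0.01 in the ratio, and there Mapt B and C passed in all 27 alternatives. The mean log2 level of 15 antisense control probe sets moved between the same groups. It differed by -0.31 in HD minus LD, -0.32 in FBS minus LD, 0.33 in RA/Fsk minus FBS and 0.32 in RA/Fsk minus HD. In RA/Fsk minus LD it differed by 0.01 and in FBS minus HD by -0.01. The part of this shift in the dim values was not tested. Of the 7 measured neuron markers, Elavl4 and Thy1 fell in FBS against LD, by 0.49 (adjusted p = 0.0468) and 1.05 (adjusted p = 0.0266). Thy1 was dim, with group means of 8.22 to 24.7. In FBS against HD, where Mapt B and C fell, limma called 0 of the 7, beside 21.0% of all probe sets (1 had an unadjusted p under 0.05). By limma 0 of the 7 changed in RA/Fsk against LD (2 had an unadjusted p under 0.05), beside 8.25% of all probe sets. Of the 7 measured progenitor markers 4 fell and 0 rose in FBS against LD, where 12.3% of all probe sets fell and 13.2% rose. Fabp7 fell by 1.79 (adjusted p = 9.36e-05), Sox11 by 1.19 (adjusted p = 0.000764), Hes5 by 1.21 (adjusted p = 0.0480) and Notch1 by 0.51 (adjusted p = 0.0366). Of the 8 measured oligodendrocyte lineage markers 1 fell and 1 rose in FBS against LD, near those shares of all probe sets, and the others did not pass. Pdgfra, a receptor of oligodendrocyte precursors, fell by 2.51 (adjusted p = 3.56e-06), while Mbp, a myelin protein gene, rose by 1.46 (adjusted p = 0.0373). The part of these markers in the Mapt differences was not tested.

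Map1b, the microtubule protein of growing axons, was measured by 3 dim probe sets. Map1b A, drawn from a coding sequence, read 41.9, 60.9, 21.4 and 66.4 in FBS, 22.3, 9.2 and 15.5 in LD, 41.4, 54.4 and 33.8 in HD, and 12.9, 26.8, 18.4 and 15.1 in RA/Fsk cultures. The HD values and 3 of the 4 FBS values exceeded every LD and RA/Fsk value, and FBS culture 3 overlapped both. The arrays of FBS culture 3 disagreed, at 52.1 and 7.2, and so did those of HD culture 1, at 21.5 and 76.3. That lower HD array lies within the range of the LD arrays (9.2 to 22.9) and of the RA/Fsk arrays (12.9 to 26.8).

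Map1b A rose in FBS over LD by 1.30 ± 0.37 (adjusted p = 0.0141), and RA/Fsk minus FBS was -1.11 ± 0.34 (adjusted p = 0.0308). These passed in 21 and 16 of 26 alternatives. With array 3r standing alone for FBS culture 3 the adjusted p became 0.167 and 0.278, with the GAPDH ratio as a covariate 0.129 and 0.181, and without LD culture 3 FBS minus LD had 0.0785. For RA/Fsk minus FBS, leaving out FBS culture 1, 2 or 4 or RA/Fsk culture 1 or 4 gave 0.0600 to 0.108. HD minus LD was 1.25 ± 0.39 without overlap of the averaged cultures, yet did not pass (adjusted p = 0.163). Map1b B and C, brighter than only 13.9% and 3.28% of probe sets, ranged from 3.2 to 38.2 and from 1.1 to 13.4 and passed nowhere.

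Gap43, the growth cone protein, was the only member that changed between RA/Fsk and LD. It read 332, 219, 244 and 382 in RA/Fsk cultures 1 to 4 against 556, 542 and 506 in LD cultures 1, 3 and 4. FBS cultures read 457, 530, 506 and 412, and HD cultures 1104, 626 and 1051. RA/Fsk lay below every other group without overlap, HD lay above every other group, and LD and FBS overlapped.

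RA/Fsk minus LD was -0.88 ± 0.21, a 1.85-fold fall (adjusted p = 0.0121). Over all probe sets, RA/Fsk and LD cultures of a shared number deviated together only weakly, and the labels do not pair these numbers. Gap43 did not follow this, since culture 4 was the lowest in LD (506) and the highest in RA/Fsk (382). In a paired fit of the 3 shared numbers alone, with the number as a replicate block, the difference was -0.76 (adjusted p = 0.0575). The call thus ended there. RA/Fsk minus FBS was -0.71 ± 0.19 (adjusted p = 0.0137), which ended without RA/Fsk culture 2 (0.0508) and with the GAPDH ratio as a covariate (0.172). Against HD, Gap43 fell by 1.63 ± 0.21 in RA/Fsk (adjusted p = 0.000105) and by 0.92 ± 0.21 in FBS (adjusted p = 0.00324). HD minus LD was 0.75 ± 0.22 (adjusted p = 0.139), and reached 0.0459 without HD culture 2. FBS minus LD was -0.17 (95% interval -0.61 to 0.27). By group means the order was HD, LD, FBS and RA/Fsk, and of its neighbouring pairs only FBS and RA/Fsk differed past the threshold.

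**Figure D2:**
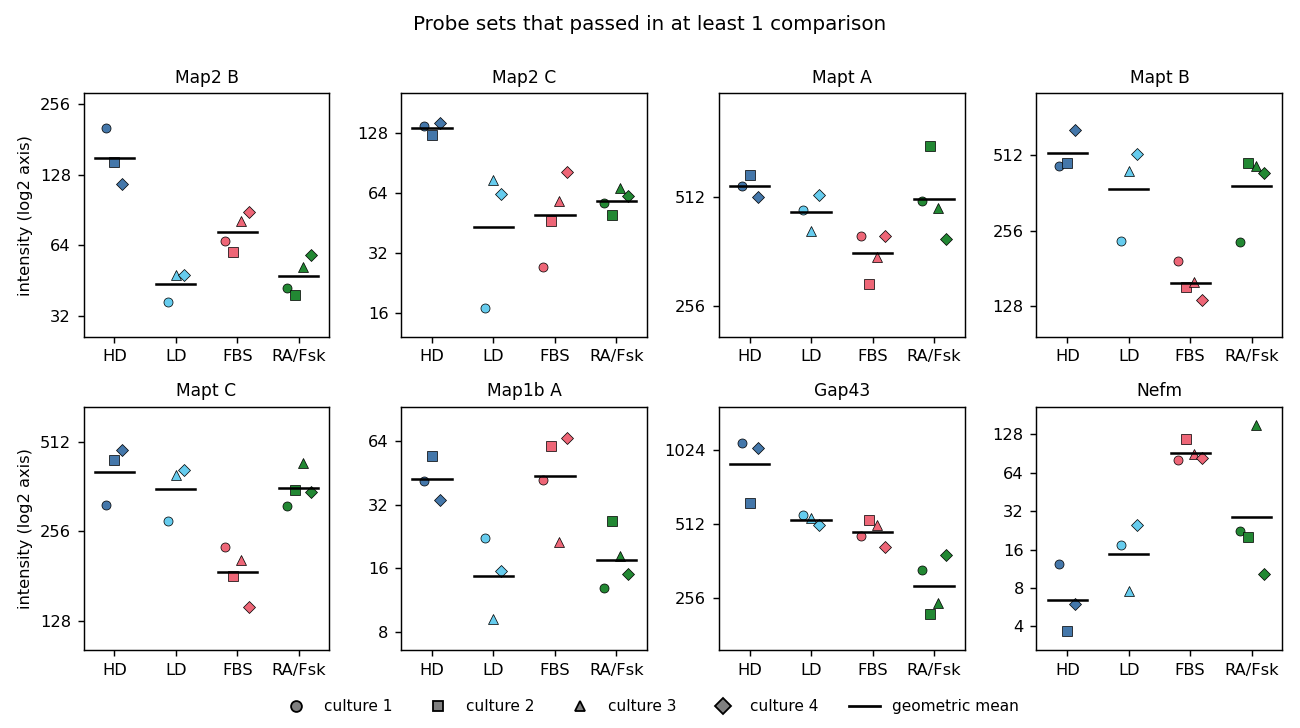
Intensity (log2 axis) of the 8 probe sets that passed in at least 1 comparison, with 1 point per culture, its number as the marker shape, and the geometric mean of each group as a bar. FBS points lie lowest for Mapt B and C, RA/Fsk points lie lowest for Gap43, and HD points lie highest for Map2 B and C.

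Nefm, the medium neurofilament chain, gave the largest differences among the members. It read 81.1, 118, 90.2 and 83.4 in FBS against 17.4, 7.5 and 25.1 in LD and 12.3, 3.65 and 5.94 in HD. The RA/Fsk cultures read 22.3, 20.2, 151 and 10.3. All FBS cultures lay above all LD and HD cultures, and 1 RA/Fsk culture, number 3, was higher than every other culture while the other 3 lay within the LD range.

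Nefm rose in FBS over LD by 2.26 ± 0.58, 4.77-fold (adjusted p = 0.00765), and over HD by 3.04 ± 0.58, 8.25-fold (adjusted p = 0.000837), and each passed in all 26 alternatives. Over those alternatives the differences ran from 1.36 to 2.55 and from 1.67 to 3.63, the lowest with a pseudocount of 32, since LD and HD levels lie near the pseudocount. RA/Fsk minus FBS was -1.44 ± 0.54 (adjusted p = 0.0787), and without RA/Fsk culture 3 it was -2.15 (adjusted p = 0.000420). RA/Fsk minus LD was 0.81 (95% interval -0.42 to 2.05), and without RA/Fsk culture 3 it was 0.11 (adjusted p = 0.919). RA/Fsk minus HD was 1.60 (adjusted p = 0.10). It was 0.90 without RA/Fsk culture 3 (adjusted p = 0.162) and 2.01 without RA/Fsk culture 4 (adjusted p = 0.0379).

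The other neurofilament chains passed in no comparison. Nefl A, the light chain, read 79.3, 73.9, 57.6 and 54.8 in FBS, 20.6, 33.7 and 24.6 in HD, 64.1, 10.9 and 39.9 in LD, and 105, 50.8, 16.4 and 44.2 in RA/Fsk cultures. FBS lay above HD without overlap, but FBS minus HD was 1.20 ± 0.50 (adjusted p = 0.111), and it passed in 4 of 26 alternatives, with an adjusted p of 0.00921 under the replicate block. Nefl B ranged from 6.7 to 30.5. Nefl A and Nefm, which are neighbours on chromosome 15, correlated at r = 0.336 over the 14 cultures.

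Nefh, the heavy chain, ranged from 36.1 to 163 on Nefh A, with every group overlapping the others. Nefh B ranged from 2.4 to 23.9, and its FBS cultures (9.98, 15.3, 6.02 and 23.9) lay above those of LD (5.55, 4.3 and 4.3), at a difference of 0.86 that did not pass (adjusted p = 0.0889).

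Ina A, for alpha-internexin, read 65.1, 68.5, 76.9 and 60 in FBS, 58.3, 48 and 49 in LD, 81.4, 59.6 and 51.2 in HD, and 56.2, 92.5, 77.7 and 77.7 in RA/Fsk cultures. RA/Fsk minus LD was 0.50 (95% interval 0.01 to 0.98), which did not pass (adjusted p = 0.225). Ina B was lowest in FBS, at 31.5, 12.9, 56.6 and 31.9 against 54.0, 98.3 and 53.8 in LD, with 1 FBS culture inside the LD range. FBS minus LD was -1.02 ± 0.41 (adjusted p = 0.0790) and RA/Fsk minus FBS 1.05 ± 0.38 (adjusted p = 0.0651). They passed in 3 and 5 of 27 alternatives, the second with the culture number as a replicate block (adjusted p = 0.0487). The arrays of FBS culture 3 disagreed, at 34.5 and 91.1. With the lower array standing alone for that culture the adjusted p was 0.0259 and 0.0195, with the higher one 0.216 and 0.204, and without the culture 0.0293 and 0.0254. The probe sets of Ina correlated at r = 0.177, those of Nefh at 0.199 and those of Nefl at 0.0225.

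**Figure D3:**
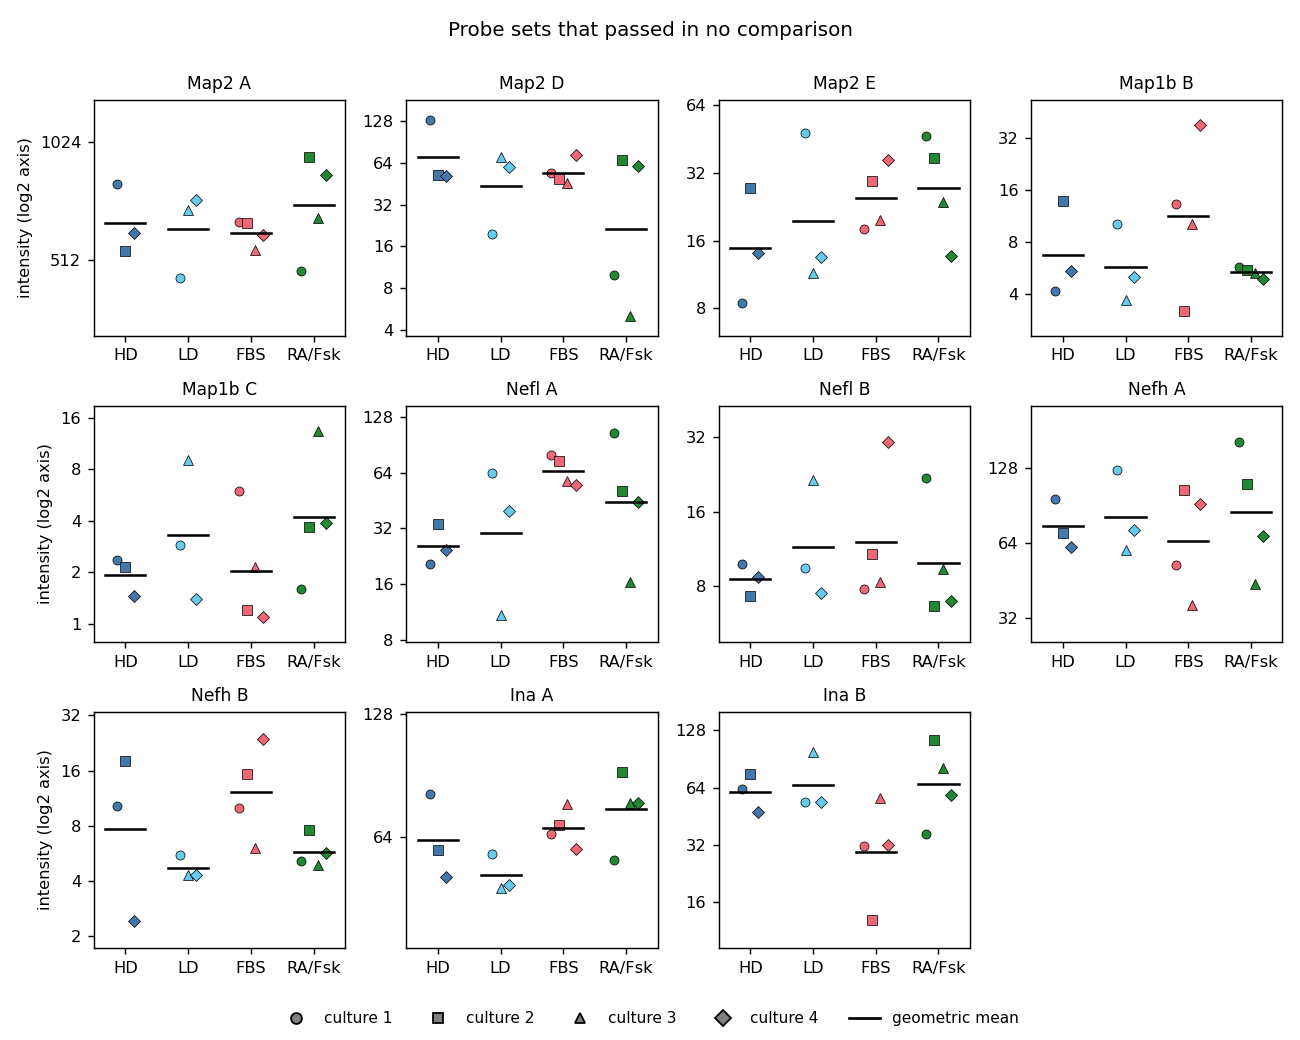
Intensity (log2 axis) of the 11 probe sets that passed in no comparison, drawn with 1 point per culture and the geometric mean of each group as a bar. The groups overlap in most panels, and Nefl A shows FBS above HD without overlap.

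The genes most alike to a member were taken from 3638 bright probe sets of other genes by Pearson's r over the 14 cultures, which share group structure and array scaling. Gap43 was most like Tcf12, a basic helix-loop-helix transcription factor (r = 0.920), then Hsp90ab1 (0.896) and Ppp2r2a (0.895). Mapt B was most like Hnrnpa3 (0.957), Smc1a (0.936) and Abi2 (0.935), and Mapt C most like Scd (0.943), Phgdh (0.933) and Acsl3 (0.923). For Mapt A the highest r was 0.786, with Adipor2. Nefm was most like Gng8 (0.936), Gadd45a (0.924) and Cebpb (0.918), and Map2 B most like Lta4h (0.867), Marcks (0.844) and Rab11a (0.836). Map2 A was most like Polb (0.881), Map2 C like Nedd4 (0.819), Map2 D like Nalcn (0.881), Nefl A like Rab11b (0.915), Nefh A like Cxcl6 (0.888), Ina A like Ncoa4 (0.845) and Ina B like Nell2 (0.873). Among members of different genes the highest r was 0.814, between the dim Map1b A and Nefh B. It was 0.712 between Map2 B and Gap43 and 0.687 between Mapt B and Ina B. The lowest was -0.690, between Mapt B and Nefl A, beside -0.666 between Mapt B and Nefm.

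Tubulins and other microtubule proteins, on which Map2, Mapt and Map1b act, were read through the brightest probe set of each of 14 measured genes of 33 listed. In FBS against LD 2 rose and 5 fell (14.3% and 35.7%, beside 13.2% and 12.3% of all probe sets). In RA/Fsk against LD 2 rose and 2 fell (14.3% each, beside 4.71% and 3.54% of all). In HD against LD limma called 0 (beside 0.858% of all), with 2 higher and 1 lower at an unadjusted p under 0.05. The list's median differences were 0.06, -0.05 and -0.12. Tubb2b, a beta-tubulin of developing neurons, read 4645, 4346, 4918 and 3733 in FBS against 10893, 10725 and 10181 in LD, and fell by 1.27 ± 0.12 (adjusted p = 9.49e-07). Tubb5 fell by 1.08 ± 0.13 and Tuba1b by 0.80 ± 0.12 in the same comparison, and Stmn1, the microtubule-destabilising stathmin, fell by 1.03 ± 0.17.

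In RA/Fsk against LD, Stmn1 fell by 0.70 (adjusted p = 0.0190) and Tubb5 by 0.58 (adjusted p = 0.00782), while Map1lc3a, the light chain that binds MAP1 proteins, rose by 0.60 (adjusted p = 0.00656). In the paired fit of the shared numbers alone Tubb5 no longer passed (adjusted p = 0.0818), but with the replicate block over all cultures it did (0.0118). Stmn1 failed without LD culture 3 or 4. Under median centring Tubb5 and Map1lc3a did not pass. Tubb2b was 1.04 ± 0.11 higher in RA/Fsk than in FBS (adjusted p = 5.05e-06), the direction that Mapt B and C also took. Against FBS, 3 genes of the list rose and 1 fell in RA/Fsk (beside 8.27% and 10.1% of all probe sets). In FBS against HD 2 rose and 5 fell (beside 11.3% and 9.70% of all), and in RA/Fsk against HD 1 rose and 3 fell (beside 4.85% and 5.32%). Those 3 became 1 without HD culture 2 or 4, without RA/Fsk culture 1 or 2, or with the GAPDH ratio as a covariate, and with that covariate the 3 that rose against FBS also became 1.

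Other growth cone and axon growth genes moved in both directions. Of 29 measured genes of 36 listed, 11 rose and 4 fell in FBS against LD (37.9% and 13.8%, beside 13.2% and 12.3% of all probe sets). In RA/Fsk against LD 6 rose and 1 fell (20.7% and 3.45%, beside 4.71% and 3.54% of all). In HD against LD limma called 0, beside 0.858% of all (4 higher and 2 lower at an unadjusted p under 0.05). The medians were 0.44, 0.10 and 0.07. The count of 6 became 1 in the paired fit with the replicate block, 2 with only the compared groups in the fit and 3 without LD culture 3 or 4 or with FBS array 3r alone, and that array alone took 11 to 7. Crmp1, a collapsin response mediator protein, was the 1 that fell with RA/Fsk, at 112, 146, 153 and 174 against 321, 417 and 388 in LD. No RA/Fsk culture reached the LD range, and the difference was -1.34 ± 0.18 (adjusted p = 0.000171).

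Fez1, a transport adaptor needed for axon extension, rose in RA/Fsk by 1.19 ± 0.17 (adjusted p = 0.000217), from 592, 763 and 614 in LD to 1409, 1783, 1162 and 1712. Dnm1 rose by 0.91 ± 0.20 (adjusted p = 0.00784) and Rab3a, a small GTPase of synaptic vesicles, by 1.21 ± 0.28 (adjusted p = 0.0109). Nrcam, an adhesion molecule of axons, rose by 1.09 ± 0.30 (adjusted p = 0.0315). All RA/Fsk values of Fez1 exceeded those of the other 10 cultures. In the paired fit of the shared numbers alone Fez1 was the 1 rise that still passed (adjusted p = 0.0189). There Dnm1 stood at 0.0581, Rab3a at 0.0911 and Nrcam at 0.191. With the replicate block over all cultures Rab3a (adjusted p = 0.00811) and Nrcam (0.0256) passed. Over all alternatives Fez1 and Crmp1 passed in 28 of 28, Dnm1 in 27, Rab3a in 24 and Nrcam in 20. Without LD culture 3 neither Rab3a nor Nrcam passed, and Nrcam also failed without LD culture 4 or RA/Fsk culture 2 or 4.

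FBS cultures differed from LD in both directions within this list. Cntn1, the adhesion molecule contactin, fell by 1.61 ± 0.20, from 1192, 1573 and 1512 in LD to 432, 641, 443 and 370. Dpysl4, another collapsin response mediator protein, fell by 1.75 ± 0.19, and Basp1, a growth cone protein often grouped with GAP-43, by 1.51 ± 0.26. Nrcam rose by 3.02 ± 0.30 and Rab3a by 2.21 ± 0.28. Against FBS, 5 rose and 8 fell in RA/Fsk (8 became 4 once the dimmer 50% of probe sets was dropped), with Dpysl4 2.06 ± 0.17 higher, while Sncg, gamma-synuclein, fell by 2.42 ± 0.27. In FBS against HD 10 rose (6 without HD culture 4 and 5 under median centring) and 4 fell, and in RA/Fsk against HD 3 rose and 3 fell. Over all probe sets 8.27% rose and 10.1% fell in RA/Fsk against FBS. The shares were 11.3% and 9.70% in FBS against HD, and 4.85% and 5.32% in RA/Fsk against HD.

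**Figure D4:**
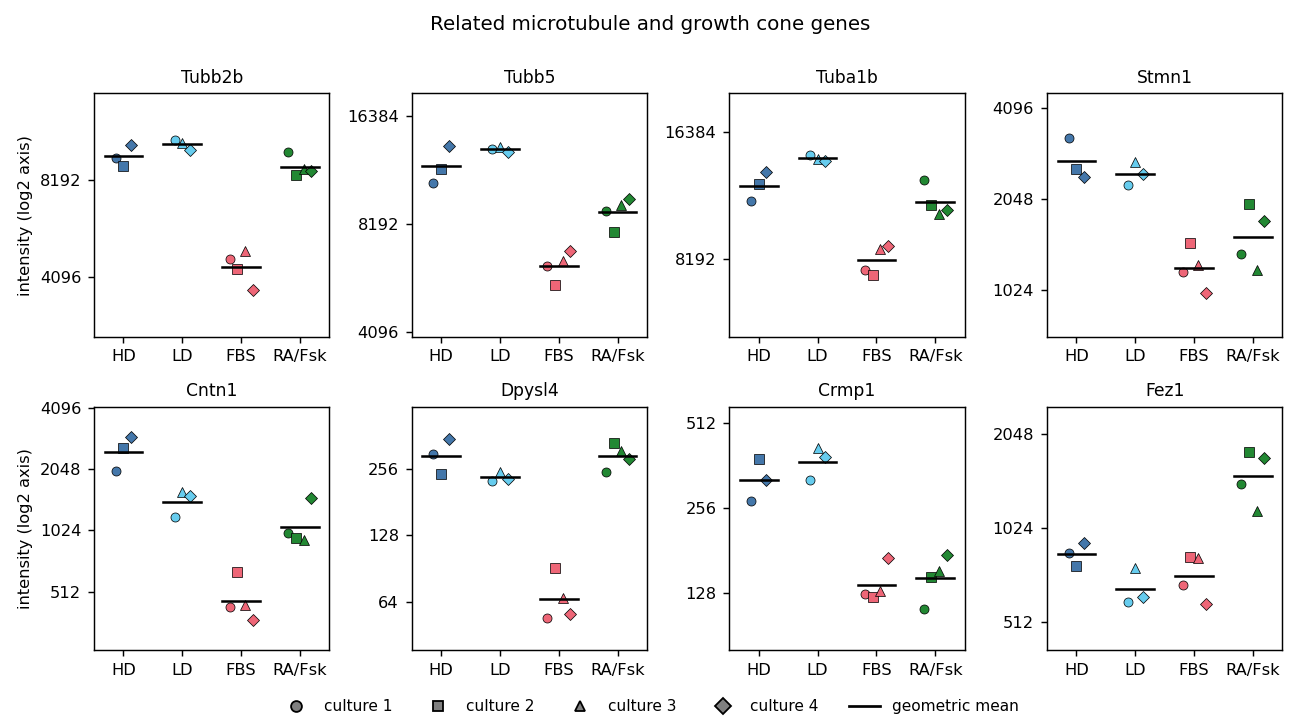
Intensity (log2 axis) of 8 related microtubule and growth cone genes, with 1 point per culture and the geometric mean of each group as a bar. Tubb2b, Tubb5, Tuba1b, Stmn1, Cntn1 and Dpysl4 are lowest in FBS, Crmp1 is low in both treated groups, and Fez1 is highest in RA/Fsk.

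Kinases and phosphatases known to act on tau and neurofilaments were measured for 29 of 34 listed genes. In FBS against LD 5 rose and 2 fell (17.2% and 6.90%, beside 13.2% and 12.3% of all probe sets). In RA/Fsk against LD 2 rose and 0 fell (6.90% and 0%, beside 4.71% and 3.54% of all). In HD against LD 1 rose and 0 fell by limma (3.45% and 0%, beside 0.435% and 0.423% of all). The medians were 0.05, -0.06 and 0.08. The 5 became 3 with FBS array 3r alone, and the 1 became 4 with each array as a sample of its own. At an unadjusted p under 0.05, 4 were lower in RA/Fsk and 1 in HD. Cdk5, a kinase that phosphorylates tau and neurofilament tails, rose in FBS by 0.81 ± 0.16 (adjusted p = 0.00102) and in RA/Fsk by 0.70 ± 0.16 (adjusted p = 0.0102, or 0.0708 in the paired fit with the replicate block, where the call ended). Its LD cultures read 148, 152 and 184, below all FBS (226 to 323) and RA/Fsk (244 to 303) cultures. Prkca, the protein kinase C alpha gene, rose in all 3 comparisons with LD, by 1.97 ± 0.36 in HD (adjusted p = 0.0131), 1.68 ± 0.34 in FBS and 2.80 ± 0.34 in RA/Fsk, from LD levels of 2.9 to 6.98 that lie near the pseudocount. The HD rise passed in 22 of 26 alternatives and failed without HD culture 2 or 4.

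Gsk3b, another tau kinase, passed in FBS against HD alone, at 0.76 ± 0.23 (adjusted p = 0.0216), and in 20 of 27 alternatives, failing without HD culture 1 or 4 or FBS culture 1 or 3. Ppp2cb, a catalytic subunit of the phosphatase that acts on tau, rose in FBS over LD by 0.86 ± 0.14 and fell by 1.23 ± 0.13 in RA/Fsk against FBS. In the list 2 rose and 3 fell in RA/Fsk against FBS (beside 8.27% and 10.1% of all probe sets). In FBS against HD 4 rose and 4 fell (beside 11.3% and 9.70% of all), and in RA/Fsk against HD 1 and 3 (beside 4.85% and 5.32%). The 4 that fell became 2 without HD culture 1 or 4. The 3 that fell became 0 without HD culture 1 or 4, 1 without RA/Fsk culture 3 and 5 without RA/Fsk culture 4.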

How the data were processed

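The deposited table gives 1 linear intensity per probe set and array for 8799 probe sets. The authors' background correction and probe summary were not given in the sources used here. The trimmed mean (2% off each end) is 200.0 on every array, so the values appear scaled to a common level. Precision is limited by the number of arrays. The members, gene lists and alternatives were chosen with earlier results of these data known.

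Values were taken as log2(intensity + 4.99), the pseudocount being 10% of the median positive value of 49.9, and a fold on this scale understates the change of dim probe sets. The 59 control probe sets were left out. Of 8740 tested, 7006 carry a single symbol in the platform annotation, 308 several and 1426 none. The RefSeq table of GRCr8 held the gene identifier of 6985, and 0 symbols changed. Arrays of a group that share a title number were averaged, giving 14 cultures. A single limma model (limma 3.58.1, R 4.3.3) held all 4 groups (eBayes with an intensity trend), p-values were adjusted by Benjamini-Hochberg, and the fit was tested on simulated data.

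Every member probe set is named. From each of 6 related lists, up to 4 passing genes with the smallest adjusted p per comparison were eligible, and Basp1, Gsk3b and Nes were added after their values were seen. A list is read through each gene's brightest probe set. Likeness used the 3 highest correlations per member. For the pairing of equal numbers, deviations from group means were correlated over 18 pairs (-0.0853 to 0.326). Of these, 6 were over 0.1. Only LD and RA/Fsk had all 3 pairs over 0.1 (0.326, 0.157 and 0.108), and single pairs of other groups reached 0.143 (HD and LD, number 1). These correlations are weak, and the labels do not say that equal numbers pair the groups. The numbers of LD and RA/Fsk were taken as pairing them, and the paired fit was added after seeing the data. Alternatives covered the pseudocount, scaling, dim probe sets, array pairs, the intensity trend, the groups fitted, the GAPDH ratio, the replicate block and each culture left out.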

Additional observations from a re-analysis of the deposited data

Results flagged for a closer look

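Mapt B in RA/Fsk culture 1 stood apart from the other RA/Fsk cultures, at 231 against a next value of 433, and the gap took up 0.868 of the group's range on the log2 scale. In 38 groups of 4 cultures tested this was the only such value, and chance gives about 1 in 20. LD culture 1, at 234, was also the lowest of its group for Mapt B. Mapt C and Mapt A read 312 and 496 in RA/Fsk culture 1.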

How the results depend on the processing

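Over 28 settings 0 of 3043 member values changed direction among those called, 59 lost their call and 38 gained one. For HD minus LD the count of 1 passing member probe set became 3 with each array as its own sample, with or without the culture as a random block, and 2 with the culture number as a replicate block. For FBS minus LD the count of 5 became 3 with FBS array 3r alone and 1 with the GAPDH ratio as a covariate. For RA/Fsk minus LD the count of 1 became 0 in the paired fit of the shared numbers alone, and stayed 1 with the replicate block over all cultures. For RA/Fsk minus FBS the count of 5 became 3 with only the compared groups in the fit and 0 with the GAPDH covariate. With 1 culture left out, the counts ran from 1 to 2 for HD minus LD (2 without HD culture 2), 3 to 6 for FBS minus LD (3 without LD culture 3), 1 to 1 for RA/Fsk minus LD, 3 to 5 for RA/Fsk minus FBS (3 without FBS culture 1 or 4 or RA/Fsk culture 2), 4 to 7 for FBS minus HD (4 without HD culture 1) and 2 to 3 for RA/Fsk minus HD. The replicate block changed no other count by over 1.5 times, and the cause of these moves was not tested. Median centring shifted the median of all probe sets by 0.10 in HD minus LD and RA/Fsk minus FBS and by -0.19 in FBS minus HD. Leaving out the dimmer 50% of probe sets kept 10 of the 19 members. Dim signal limits the neurofilament and Map1b values.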

Other observations

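Other filament, motor and membrane skeleton genes were read from related lists. Over all probe sets 13.2% rose and 12.3% fell in FBS against LD, and 4.71% and 3.54% in RA/Fsk against LD. In HD against LD 0.858% passed. Of 10 measured intermediate filament and lamin genes, 1 rose and 2 fell in FBS against LD, 0 rose and 1 fell in RA/Fsk against LD, and limma called 0 in HD against LD. At an unadjusted p under 0.05, 1 was higher in RA/Fsk and 1 lower in HD. Lmnb1, the B-type lamin of the nuclear envelope, fell by 2.96 ± 0.36 in FBS (adjusted p = 9.26e-06) and by 1.53 ± 0.36 in RA/Fsk (adjusted p = 0.0120, a call that ended without LD culture 4), while Lmna, the A-type lamin, rose by 1.15 ± 0.15 in FBS (adjusted p = 2.79e-05). Nes, the progenitor filament nestin, differed by -0.02 in FBS against LD (adjusted p = 0.972). Of 12 measured motor and transport genes, 3 rose and 1 fell in FBS against LD, and by limma 2 rose and 0 fell in RA/Fsk against LD (1 lower at an unadjusted p under 0.05). App, the amyloid precursor protein carried by kinesin, read 1304, 1510, 1650 and 1949 in FBS against 411, 482 and 430 in LD and rose by 1.84 ± 0.20 (adjusted p = 2.77e-06). The 3 that rose became 5 with the GAPDH ratio as a covariate.

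Of 12 measured genes of the membrane skeleton, 4 rose and 2 fell in FBS against LD (4 became 2 without LD culture 1 or under median centring). In RA/Fsk against LD 1 rose and 1 fell. Over all probe sets 13.2% rose and 12.3% fell in FBS, and 4.71% and 3.54% in RA/Fsk. Add3, gamma-adducin, which caps actin filaments under the membrane, rose by 2.0 ± 0.20 in RA/Fsk (adjusted p = 7.58e-06) and by 1.19 ± 0.20 in FBS (adjusted p = 0.000219). Its LD cultures read 131, 76.8 and 67.1, its FBS cultures 181 to 230 and its RA/Fsk cultures 338 to 424, without overlap. Epb41, the band 4.1 protein, fell by 3.22 ± 0.37 in FBS (adjusted p = 4.93e-06). Ezr, ezrin, fell in both treatments, by 1.48 ± 0.26 in FBS and 1.02 ± 0.26 in RA/Fsk, and the RA/Fsk fall did not pass without LD culture 3 or 4 or under median centring.

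The summed levels of the other cell type markers were as follows. The 7 measured progenitor markers summed to 5513 to 7543 in HD, 5333 to 7539 in LD, 6544 to 6976 in FBS and 4338 to 6147 in RA/Fsk cultures. Vim made up most of that sum, with group means of 2787 to 4808, while Fabp7, Sox11, Hes5 and Notch1 fell in FBS against LD. The 8 measured oligodendrocyte lineage markers summed to 2235 to 2763, 2120 to 2869, 1682 to 2132 and 2766 to 4774 in that order. Microglia markers summed to 129 to 302 over all groups, fibroblast and mural cell markers to 228 to 448, endothelial markers to 83.6 to 180 and Schwann cell markers to 815 to 2130.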
